A study of Mus musculus with 23 samples.

Results

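Wild-type mouse embryoid bodies (EBs) treated with activin A were compared with wild-type EBs treated with SB431542, gene by gene. The comparison used 4 RNA-seq libraries, 2 for each treatment, of the 10 RNA-seq libraries and 23 samples in the series. Genes were included when they reached at least 1 FPKM (fragments scaled by transcript length and library size) in at least 2 of the 4 libraries, which kept 10752 of 29032 gene symbols. EBs are the aggregates that embryonic stem cells (ESCs) form in suspension once leukaemia inhibitory factor is withdrawn. The activin group was Trim33 WT EBs at day 2.5 given activin A at 50 ng/ml for 2 h, and the SB431542 group was Trim33 WT EBs at day 2.5 given SB431542. Both groups grew in 15% serum on ultra-low attachment plates and came from ESCs of a C57Bl/6J background. The dose of SB431542 is 10 μM in most labels and 10 mM in a protocol, and its duration is 2 h in the sample titles and 1 h in the design text. Trim33-null EBs of the same background and day, given the same 2 treatments, supplied 4 further libraries that helped to estimate the spread between libraries. No EBs without treatment were analysed here, so each difference is between a stimulated and an inhibited pathway, and a gene's resting level is unknown. Whether replicate libraries were grown as separate cultures is not stated, and p-values therefore measure the spread between these libraries, which may be technical. EBs are mixtures of cells, and in such bulk RNA a change in the number of cells of a type and a change in the RNA per cell cannot be told apart.

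Activin A binds the type II and type I receptors that Nodal also uses, and the activated type I receptor kinase phosphorylates SMAD2 and SMAD3. These proteins join SMAD4, enter the nucleus and regulate genes with partners such as FOXH1. SB431542 blocks the kinase of those type I receptors. In the early mouse embryo the pathway maintains the epiblast, patterns it and induces the primitive streak, from which mesoderm and endoderm arise, and it turns on several of its own inhibitors.

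The FPKM of the 4 libraries summed to between 236708 and 246111, a likeness that scaling to library size favours. Between 10564 and 10662 genes per library reached 1 FPKM. Genes listed at 0 numbered 5881 and 6226 in activin libraries I and II, and 6486 and 7194 in SB431542 libraries I and II. The table gives no read counts, and depth relative to activin library I was estimated at 0.688 for activin II, 0.599 for SB431542 I and 0.325 for SB431542 II. These estimates are rough, since the steps they rest on held only 6.73% to 7.79% of low values. Both SB431542 libraries had lower estimates than both activin libraries, so depth ran with treatment. Its part in the values of low genes was not tested. Across the tested genes the Pearson correlation was 0.994 between the activin libraries and 0.996 between the SB431542 libraries, against 0.996 and 0.995 between libraries of the same numeral under different treatments. The 7 markers of pluripotent and epiblast cells (Pou5f1, Sox2, Utf1, Dnmt3b, Fgf5, Otx2 and Pou3f1) summed to 648 to 685 FPKM under activin and 620 to 642 FPKM under SB431542, and all 7 were above 1 FPKM. Of 10 extraembryonic endoderm markers, 9 were below 1 FPKM in all 4 libraries, and the 10 summed to 2.60 to 3.13 FPKM under activin and 2.64 to 2.67 FPKM under SB431542. Trophoblast markers summed to 6.14 to 7.65 FPKM under activin and 6.33 to 6.66 FPKM under SB431542, and fibroblast markers to 11 to 14.1 FPKM under activin and 11.4 to 14.2 FPKM under SB431542. The 12 housekeeping genes differed by -0.06 to 0.07 on the log2 scale, and none was called.

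In the comparison of activin with SB431542, 28 genes were higher under activin, 0.26% of the genes tested, and 0 were lower (limma on log2(FPKM + 1), Benjamini-Hochberg adjusted p below 0.05). At an unadjusted p below 0.05, 241 genes were higher (2.24%) and 53 were lower (0.493%). Both activin libraries lay above both SB431542 libraries for 1584 genes (14.7%) and below them for 1501 genes (14%). A change of at least 1 on the log2 scale was measured for 20 genes upward and for 0 downward. The 28 called genes ran from 4.15 for Lefty1 to 0.53 for Msc, and 12 of them reached 1. Fold differences of the FPKM means lay between 1.69 and 19.5, and 23 of the 28 genes were at least 2-fold higher. The called genes had a median of 1.62 FPKM under SB431542, against 4.99 FPKM for all tested genes. Low values there were favoured by the selection, since every called gene was lower under SB431542. Of the 28, 8 passed the level filter through the activin libraries alone (Pcdh8, Shisa3, Spaca6, Msx1, Dhrs3, Fam89a, Gsc and Msc). Leaving out any 1 of the 4 libraries reduced the calls to 4 or 5, and Lefty1, Smad7 and Fzd10 were called each time.

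**Figure D1:**
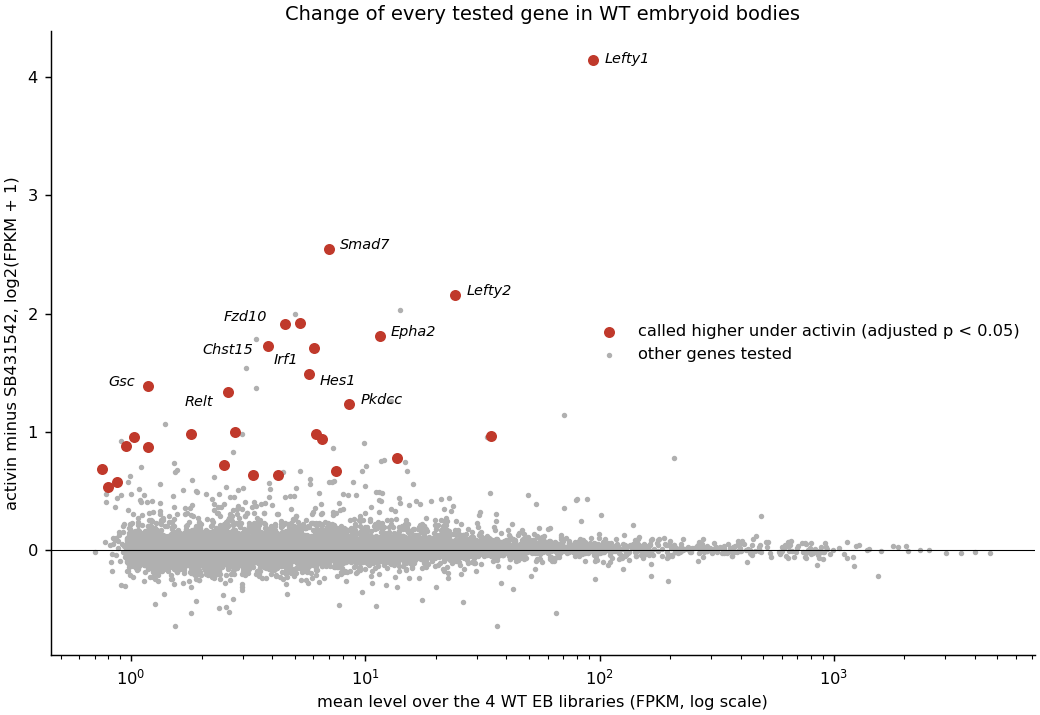
Change of each of the 10752 tested genes (activin minus SB431542, log2(FPKM + 1), vertical axis) against its mean level over the 4 WT EB libraries (FPKM, logarithmic horizontal axis). The 28 called genes are red and all lie above 0, from 0.53 to 4.15, and the other tested genes are grey.

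Of the secreted and surface components of the Nodal pathway, the 2 Lefty genes were called higher under activin than under SB431542. They encode secreted proteins of the TGF-beta family that block Nodal from its co-receptors. Lefty1 stood at 181 and 177 FPKM in the activin libraries I and II, against 8.63 and 9.73 FPKM in the SB431542 libraries I and II. This was the largest change and the smallest p of all tested genes (4.15 ± 0.11 SE on the log2 scale, adjusted p = 8.97e-05), and Lefty1 took rank 200 by mean level under activin against rank 3377 under SB431542. Lefty2 stood at 42.0 and 38.4 FPKM under activin, against 7.48 and 9.07 FPKM under SB431542 (2.15 ± 0.17, adjusted p = 0.00805). For both genes the 2 treatments were far apart and the replicate libraries close together.

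Of 17 genes listed as ligands, co-receptors and extracellular regulators of the pathway, 9 were tested, the 2 Lefty genes were called and the median change was 0.13, against 0.00 over all tested genes. The EGF-CFC co-receptor gene Tdgf1 was abundant, with 267 and 260.0 FPKM under activin against 153 and 153 FPKM under SB431542. Its change of 0.78 ± 0.10 missed the threshold narrowly (adjusted p = 0.0528). Nodal, the ligand itself, had 40.6 and 46.7 FPKM under activin, against 26.1 and 18.4 FPKM under SB431542, with no overlap between the treatments (0.96 ± 0.19, adjusted p = 0.339). Follistatin, a secreted antagonist of activin encoded by Fst, had 22.4 and 20.9 FPKM under activin and 36.8 and 24.0 FPKM under SB431542 (-0.44 ± 0.48, adjusted p = 1.00). The activin subunit genes Inhba and Inhbb and the inhibitor genes Cer1 and Dand5 stayed below 1 FPKM in all 4 libraries and were not tested.

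Inside the cell, Smad7 was called higher under activin than under SB431542. It encodes an inhibitory SMAD that binds the activated type I receptor and recruits ubiquitin ligases to it. Smad7 had 11.8 and 13.5 FPKM under activin, against 1.35 and 1.32 FPKM under SB431542 (2.54 ± 0.10, adjusted p = 0.000665), the second largest change measured. Of 14 listed intracellular feedback genes, 12 were tested and Smad7 alone was called, 10 of the 12 had both activin libraries above both SB431542 libraries (14.7% over all tested genes), and the median change was 0.30. Pmepa1, whose membrane protein limits SMAD activation, had 5.32 and 6.41 FPKM under activin, against 0.853 and 1.13 FPKM under SB431542. Its change of 1.78 was large and its SE of 0.37, estimated over all 8 EB libraries, was large too (adjusted p = 0.384). Skil, which encodes the SMAD corepressor SnoN, had 11.9 and 12.3 FPKM under activin and 6.69 and 7.86 FPKM under SB431542 (0.67 ± 0.09, adjusted p = 0.0744). Dact2, whose zebrafish counterpart promotes degradation of Nodal receptors, had 5.80 and 5.10 FPKM under activin and 3.18 and 3.23 FPKM under SB431542 (0.62 ± 0.08, adjusted p = 0.059). The corepressor gene Ski and the inhibitory Smad6 had changes of 0.39 and 0.47 and were not called, and the corepressor gene Tgif1 overlapped between treatments with a change of -0.02.

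The parts that carry the signal were nearly level. None of 9 tested receptor genes of the activin, TGF-beta and BMP families was called, and their changes lay between 0.02 and 0.21. All 9 changes were positive, and 5 of the 9 genes had both activin libraries above both SB431542 libraries (14.7% over all tested genes). Acvr1b, the main type I receptor for activin and Nodal, had 4.57 and 4.45 FPKM under activin and 4.42 and 4.06 FPKM under SB431542 (0.07 ± 0.06). None of 12 signal-transducing SMADs and nuclear partners was called either, with changes between -0.05 and 0.30, and 4 of the 12 had non-overlapping higher values under activin. Foxh1 had 39.0 and 41.4 FPKM under activin and 39.8 and 38.5 FPKM under SB431542. Trim33, which encodes a chromatin reader that binds activated SMADs and is the gene that is null in the other EBs of the series, had 11.4 and 10.1 FPKM under activin and 11 and 11.1 FPKM under SB431542. The highest value of this group, 0.30, belonged to Smad1, a transducer of BMP signals (adjusted p = 0.774).

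Genes of the primitive streak and of mesendoderm had the highest median change of the 28 lists, and most of them missed the threshold in the fit without a replicate block. Of 17 listed genes 11 were tested, 1 was called (Gsc), and the median change was 0.96, although 3 of the 11 passed the filter through the activin libraries alone. That median is the change of Nodal, which also stands in the list of pathway ligands. Gsc, a homeobox gene of the organizer, had 2.71 and 1.62 FPKM under activin and 0.25 and 0.134 FPKM under SB431542 (1.39 ± 0.15, adjusted p = 0.0279; 0.0797 when the 4 WT libraries were fitted alone). The 2 activin libraries differed between themselves, yet both lay above the SB431542 libraries. Fgf8, a secreted growth factor of the streak, had 28.6 and 17.6 FPKM under activin, against 6.40 and 3.44 FPKM under SB431542 (2.03 ± 0.54, adjusted p = 0.774). Wnt3, the Wnt ligand needed to start the streak, had 4.45 and 5.78 FPKM under activin, against 1.34 and 0.861 FPKM under SB431542 (1.54 ± 0.22, adjusted p = 0.0744). Both genes separated cleanly by treatment in these 4 libraries.

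Among the T-box and homeobox genes of the streak, Eomes had 23.0 and 13.9 FPKM under activin and 9.36 and 4.97 FPKM under SB431542 (1.27 ± 0.44, adjusted p = 1.00). Mixl1 had 1.93 and 1.08 FPKM under activin and 0.337 and 0.261 FPKM under SB431542 (0.93 ± 0.17, adjusted p = 0.209). Foxa2, a forkhead factor of anterior streak and endoderm, had 3.34 and 1.26 FPKM under activin and 0.601 and 0.396 FPKM under SB431542 (1.07 ± 0.40, adjusted p = 1.00). In contrast T (Brachyury) overlapped between treatments, with 5.30 and 4.05 FPKM under activin and 4.56 and 1.60 FPKM under SB431542, and so did Sp5 and Wnt8a. For 8 of the 11 tested streak genes library I stood above library II under both treatments, against 21.3% of all tested genes. The median gap between libraries I and II was 0.40 on the log2 scale under activin and 0.48 under SB431542 (the SEs of Eomes and Fgf8 were 0.44 and 0.54). Of the genes of later lineages, 5 of 11 endoderm genes and 2 of 12 mesoderm genes were tested. Foxa2 apart, the tested endoderm genes changed by -0.02 to 0.08, while Sox17, Gata4, Gata6, Mesp1 and Tbx6 were below 1 FPKM throughout.

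Further called genes encode transcription factors, among them Hes1 and Irf1. Hes1, a bHLH repressor best known as a Notch target, had 8.92 and 9.03 FPKM under activin and 2.48 and 2.63 FPKM under SB431542 (1.49 ± 0.09, adjusted p = 0.00453). Hes1 was the only called member of 9 tested Notch pathway genes, whose median change was 0.19. Of the 9, 5 had both activin libraries above both SB431542 libraries (14.7% over all tested genes). The ligand gene Jag1 changed by 0.46 and the receptor gene Notch3 by 0.47, both uncalled, and the other tested members changed by -0.01 to 0.21. Irf1, first known as an activator of interferon genes, had 10.5 and 9.02 FPKM under activin and 2.22 and 2.34 FPKM under SB431542 (1.71 ± 0.11, adjusted p = 0.00465). The other 9 tested interferon-type genes were uncalled and changed by -0.18 to 0.29, the list's median was -0.00, and Irf7, Ifit1 and Isg15 stayed below 1 FPKM.

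The bHLH gene Olig2, known for its role in motor neuron and oligodendrocyte precursors, had 8.0 and 9.08 FPKM under activin and 3.81 and 3.86 FPKM under SB431542 (0.98 ± 0.09, adjusted p = 0.0112). No other neuroectoderm gene among the 5 tested was called, and Sox1, Pax6 and Neurog2 were below 1 FPKM. The homeobox gene Msx1, a frequent BMP target, had 1.49 and 1.87 FPKM under activin and 0.418 and 0.345 FPKM under SB431542 (0.95 ± 0.09, adjusted p = 0.0164). The other 6 tested genes of the BMP list were uncalled. Smad6, Id4 and Bambi had non-overlapping higher values under activin, with changes of 0.47, 0.31 and 0.21, while Id1, Id2 and Id3 overlapped between treatments and changed by 0.42, -0.01 and -0.17. Msc, which encodes the bHLH factor musculin, had 1.20 and 1.04 FPKM under activin and 0.501 and 0.43 FPKM under SB431542 (0.53 ± 0.06, adjusted p = 0.0396). Prdm1, a zinc finger repressor needed for germ cell specification, came next below the threshold, with 1.52 and 1.30 FPKM under activin and 0.589 and 0.535 FPKM under SB431542 (0.63 ± 0.08, adjusted p = 0.0502).

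A further group of called genes encodes receptors and regulators of other signalling pathways. Fzd10, a Frizzled receptor for Wnt ligands, had 7.11 and 8.34 FPKM under activin, against 1.46 and 1.18 FPKM under SB431542 (1.91 ± 0.10, adjusted p = 0.0018). It was the only called gene of 8 tested Frizzled genes, although 5 of the 8 had both activin libraries above both SB431542 libraries (14.7% over all tested genes). Fzd7, the most abundant of them, had 26.5 and 25.9 FPKM under activin and 17.5 and 20.7 FPKM under SB431542 (0.44 ± 0.10, adjusted p = 0.488). Lgr4, a receptor for the R-spondins that strengthen Wnt signals, had 17.0 and 17.9 FPKM under activin and 9.13 and 10.4 FPKM under SB431542 (0.78 ± 0.08, adjusted p = 0.0198). Shisa3, a relative of a Xenopus protein that retains Wnt and FGF receptors inside the cell, had 1.82 and 1.8 FPKM under activin and 0.562 and 0.517 FPKM under SB431542 (0.87 ± 0.07, adjusted p = 0.00883). Of 9 tested Wnt ligands and beta-catenin targets none was called. Wnt3, Lef1, Ccnd1 and Znrf3 had non-overlapping higher values under activin, with changes of 1.54, 0.18, 0.16 and 0.10, and the other 5 overlapped between treatments, among them the feedback gene Axin2, with a change of 0.38.

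Epha2, a receptor tyrosine kinase for ephrins on neighbouring cells, had 19.4 and 17.7 FPKM under activin, against 5.14 and 4.06 FPKM under SB431542 (1.81 ± 0.12, adjusted p = 0.00465). It was the only called gene among 14 tested Eph receptors and ephrins, and 8 of the 14 had non-overlapping higher values under activin (14.7% over all tested genes). The ephrin gene Efna3 had 2.16 and 2.62 FPKM under activin and 1.26 and 1.23 FPKM under SB431542, just short of the threshold (0.59 ± 0.07, adjusted p = 0.0528). The related Epha1 overlapped between treatments, with 18.6 and 16.4 FPKM under activin and 21.1 and 16.4 FPKM under SB431542. Bcar3, an SH2-domain adaptor, had 9.0 and 8.76 FPKM under activin and 3.91 and 4.41 FPKM under SB431542 (0.94 ± 0.08, adjusted p = 0.00883). Relt, a member of the TNF receptor family, had 4.37 and 3.97 FPKM under activin and 1.03 and 1.05 FPKM under SB431542 (1.34 ± 0.13, adjusted p = 0.0165). Lrig3, a membrane protein with leucine-rich repeats, was the last gene to pass, with 5.43 and 5.33 FPKM under activin and 3.06 and 3.16 FPKM under SB431542 (0.63 ± 0.08, adjusted p = 0.0459).

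The remaining called genes encode enzymes, adhesion proteins and others. Chst15, a sulfotransferase that modifies chondroitin sulfate, had 6.00 and 6.86 FPKM under activin, against 1.20 and 1.29 FPKM under SB431542 (1.72 ± 0.15, adjusted p = 0.0106). Pkdcc, a secreted tyrosine kinase, had 13.4 and 11.4 FPKM under activin and 4.80 and 4.57 FPKM under SB431542 (1.24 ± 0.10, adjusted p = 0.00883). Dhrs3, which reduces retinaldehyde and so limits retinoic acid, had 2.78 and 2.64 FPKM under activin and 0.779 and 0.979 FPKM under SB431542 (0.98 ± 0.10, adjusted p = 0.0182). It was the only called gene of 8 tested retinoic acid pathway genes, whose median change was 0.03. The receptor gene Rara had the next change in that list, 0.56, and was uncalled.

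Pcdh8, a protocadherin of the paraxial mesoderm, had 1.53 and 1.51 FPKM under activin and 0.38 and 0.363 FPKM under SB431542 (0.88 ± 0.06, adjusted p = 0.00689). Ago1, an Argonaute protein of small RNA silencing, had 9.74 and 9.11 FPKM under activin and 5.59 and 5.54 FPKM under SB431542 (0.67 ± 0.08, adjusted p = 0.0371). Radil, a Rap effector in cell adhesion, changed by 0.63, Spaca6, known from sperm and egg fusion, by 0.69, AI661453 by 0.72 and Fam89a by 0.58. The activin values of these 4 genes ran from 1.12 to 4.44 FPKM and their SB431542 values from 0.315 to 2.48 FPKM, with no overlap within a gene. Fam89a overlaps the gene Arv1 in the RefSeq annotation, and since the strandedness of the counting is not given in the sources used here, its reads could not be separated from those of its neighbour.

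**Figure D2:**
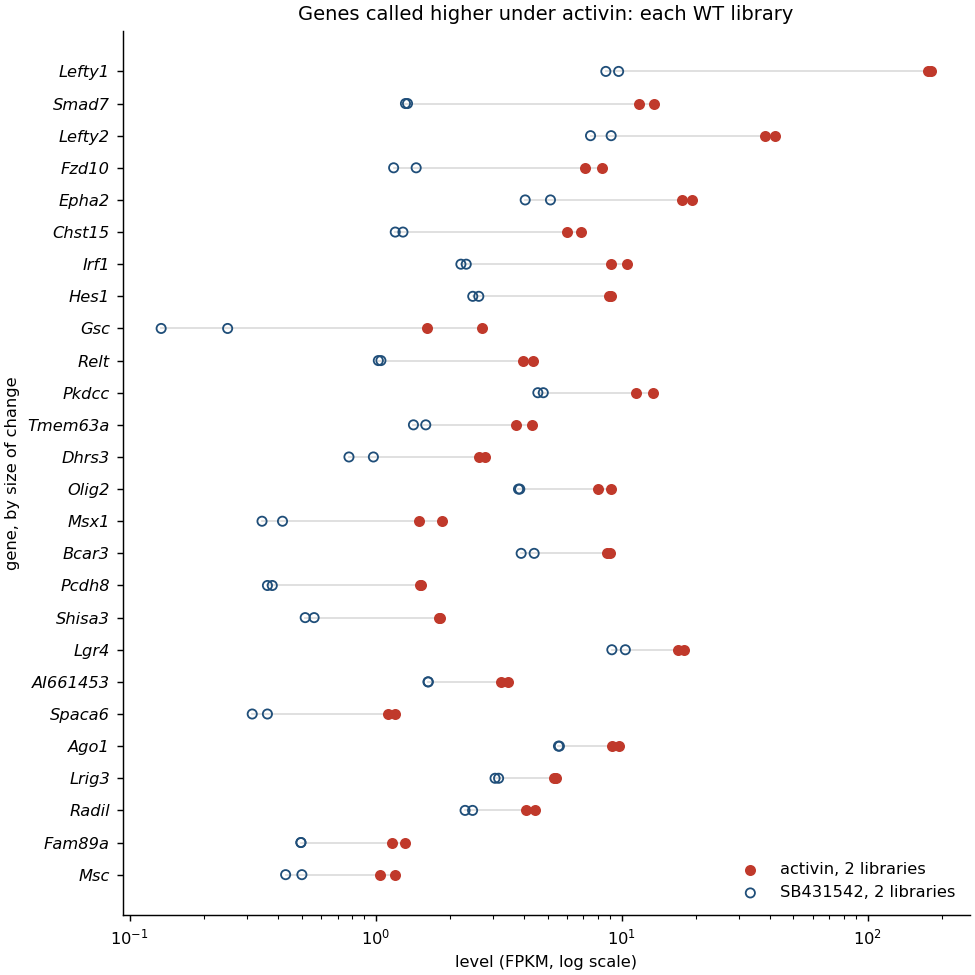
Level of 26 of the 28 genes called higher under activin in each WT EB library (FPKM, logarithmic axis), ordered by size of change. Filled red points are the 2 activin libraries and open blue points the 2 SB431542 libraries; for all 26 genes the treatments do not overlap, and the gap is widest for Lefty1, at 177 to 181 FPKM under activin and 8.63 to 9.73 FPKM under SB431542.

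RefSeq promoter sequences (GRCm38.p6) were available for 21 of the 28 called genes. The 250 bases before the start were searched on both strands for 3 motifs: CAGAC, the letters of the SMAD box, GGCGCC, a GC-rich sequence that SMADs also bind, and TGTNNATT, the letters of the FOXH1 motif. Fzd10, Epha2 and Chst15 are shown as strongly changed genes and Tmem63a as a neighbour of Lefty1, each on its own line from 5′ to 3′ on the strand of the gene, with motif letters in capitals.
Fzd10, chr5:128600856-128601105, plus strand: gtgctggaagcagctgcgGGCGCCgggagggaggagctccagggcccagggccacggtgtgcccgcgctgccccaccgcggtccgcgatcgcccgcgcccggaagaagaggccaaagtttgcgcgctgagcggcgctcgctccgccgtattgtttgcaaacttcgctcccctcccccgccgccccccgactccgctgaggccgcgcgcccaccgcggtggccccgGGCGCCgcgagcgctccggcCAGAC
Epha2, chr4:141300971-141301220, plus strand: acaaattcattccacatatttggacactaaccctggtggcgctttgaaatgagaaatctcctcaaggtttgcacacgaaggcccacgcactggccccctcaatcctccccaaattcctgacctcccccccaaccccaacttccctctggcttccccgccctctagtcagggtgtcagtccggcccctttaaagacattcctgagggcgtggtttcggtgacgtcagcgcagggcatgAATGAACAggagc
Chst15, chr7:132317229-132317478, minus strand: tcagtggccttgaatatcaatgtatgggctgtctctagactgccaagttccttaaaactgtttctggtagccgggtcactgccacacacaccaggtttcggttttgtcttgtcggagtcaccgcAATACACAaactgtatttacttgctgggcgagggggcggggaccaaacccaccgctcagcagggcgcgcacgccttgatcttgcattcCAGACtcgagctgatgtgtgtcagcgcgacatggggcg
Tmem63a, chr1:180942268-180942517, plus strand: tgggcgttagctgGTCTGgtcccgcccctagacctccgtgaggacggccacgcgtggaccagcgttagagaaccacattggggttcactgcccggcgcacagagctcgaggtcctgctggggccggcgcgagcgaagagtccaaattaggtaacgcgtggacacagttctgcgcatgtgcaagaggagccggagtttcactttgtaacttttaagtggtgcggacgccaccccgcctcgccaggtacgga
Fzd10 held CAGAC once and GGCGCC at 2 places, Epha2 held TGTNNATT in reverse, Chst15, at the more upstream of its 2 listed starts, held CAGAC and a reversed TGTNNATT, and Tmem63a held CAGAC in reverse. Over the 21 called genes, CAGAC was found in 8, against 45.8% of all 27025 genes with a promoter and 44.5% of the tested ones. GGCGCC was found in 5 of the 21, against 10.8% of all and 20.2% of the tested genes, and TGTNNATT in 3 of the 21, against 12.5% and 7.64%. The letters of CAGAC were thus in no larger a share of the called promoters than of all promoters, and these matches are descriptions of the letters, not of binding.

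Tmem63a, which encodes a mechanically gated ion channel, is the next tested gene after Lefty1 on chromosome 1 (RefSeq order, GRCm38.p6), and both were called. It had 3.73 and 4.31 FPKM under activin and 1.42 and 1.60 FPKM under SB431542 (1.00 ± 0.10, adjusted p = 0.022), with the treatments clearly apart. Beyond Tmem63a, the tested genes Ephx1, Nvl and Cnih4 changed by 0.05, -0.02 and 0.01. On the far side of Lefty2, in the same region, Sde2, H3f3a and Acbd3 changed by 0.19, 0.03 and 0.09. None of these 6 flanking genes was called, and neither was Mixl1, which lies just beyond Acbd3. Over 9826 tested genes placed in this order, 154 (1.57%) had a called gene among the 3 neighbours on each side. The region was described with its called genes known.

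The FGF and ERK genes gave mixed values. Fgf15, a secreted FGF, had 9.09 and 8.08 FPKM under activin, against 1.45 and 1.34 FPKM under SB431542, and a change of 2.00 ± 0.26 that missed the threshold narrowly (adjusted p = 0.0536). None of 9 tested FGF ligands and receptors was called, and Fgf4 overlapped between treatments. None of 14 tested ERK feedback inhibitors and ETV targets was called. In that list Il17rd, which encodes the FGF antagonist Sef, had 14.3 and 11.3 FPKM under activin and 7.78 and 7.02 FPKM under SB431542 (0.71 ± 0.19, adjusted p = 0.774). Spry4, a Sprouty inhibitor of receptor tyrosine kinase signals, lay the other way, with 5.69 and 7.0 FPKM under activin and 8.94 and 9.19 FPKM under SB431542 (-0.46 ± 0.09, adjusted p = 0.339). The dual-specificity phosphatase gene Dusp4 also had its activin values below its SB431542 values (-0.27 ± 0.08, adjusted p = 0.923), while Dusp6, Etv4 and Spry2 overlapped.

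Immediate early genes were uncalled in all 16 tested cases, with a median change of 0.11. Both activin libraries lay above both SB431542 libraries for 7 of the 16 and below for 2, against 14.7% and 14% over all tested genes. Myc had 8.38 and 11.1 FPKM under activin and 4.79 and 4.95 FPKM under SB431542 (0.86 ± 0.13, adjusted p = 0.088), Junb changed by 0.61, and Egr1 lay lower under activin, at 2.44 and 2.61 FPKM against 3.83 and 2.98 FPKM under SB431542. Of 20 tested cell cycle genes none was called, and, Myc apart, their changes lay between -0.05 and 0.33. For 9 of the 20, both activin libraries lay above both SB431542 libraries (14.7% over all tested genes), and for 0 below. In the list of matrix, cytoskeletal and epithelial-mesenchymal transition genes, classic TGF-beta targets of other cell types, none of 16 tested genes was called and the median change was 0.07. There Ctgf had 6.39 and 7.03 FPKM under activin and 3.93 and 3.76 FPKM under SB431542 (0.67 ± 0.16, adjusted p = 0.572), while Fn1, Vim and Cdh1 overlapped. Igfbp3, which encodes a carrier of insulin-like growth factors, had 12.4 and 14.0 FPKM under activin and 6.24 and 6.96 FPKM under SB431542 (0.90 ± 0.13, adjusted p = 0.088), and none of the 8 tested genes of its list was called. Of 8 chemokine genes 2 were tested and uncalled, Cx3cl1 with a change of 0.74 and Cxcl12 with 0.45.

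Pluripotency genes were mostly level. Nanog, a homeobox factor of pluripotency, had 112 and 84.1 FPKM under activin, against 45.6 and 41.2 FPKM under SB431542, with no overlap (1.15 ± 0.20, adjusted p = 0.184). Pou5f1 had 199 and 211 FPKM under activin and 199 and 189 FPKM under SB431542 (0.08 ± 0.09), and Sox2 changed by 0.05. None of 13 naive, 12 general and 14 formative or primed pluripotency genes that were tested was called, and the medians of the 3 lists were 0.10, 0.11 and 0.07. Gbx2, a homeobox gene of the naive list, had the lowest value of all list members, with 0.85 and 1.11 FPKM under activin and 2.30 and 1.88 FPKM under SB431542 (-0.64 ± 0.21, adjusted p = 1.00). Otx2, a factor of the primed epiblast, had 20.4 and 17.4 FPKM under activin and 12.3 and 15.6 FPKM under SB431542 (0.42 ± 0.20), and the epiblast marker Fgf5 changed by 0.37 ± 0.35.

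**Figure D3:**
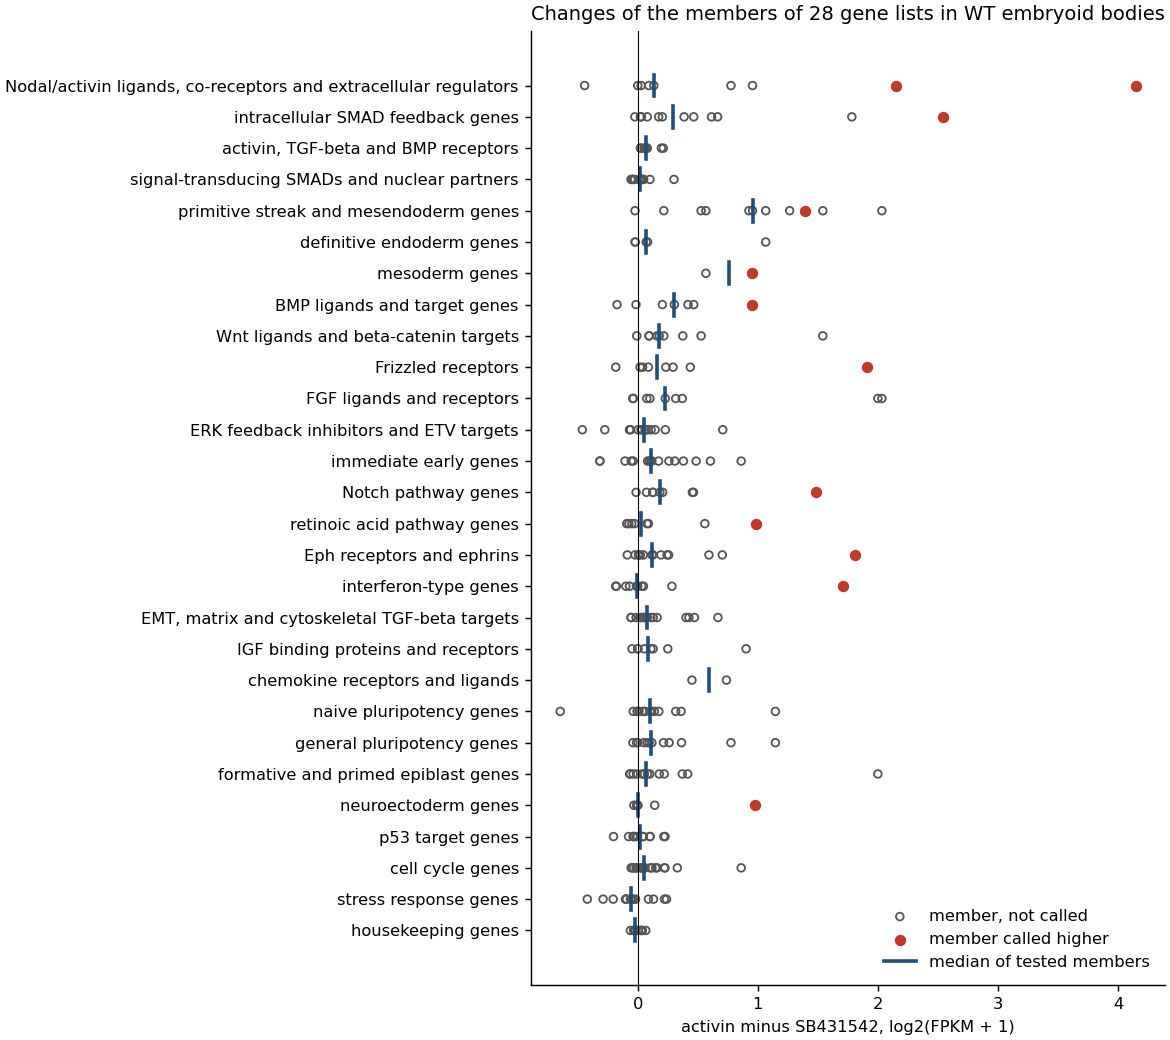
Changes (activin minus SB431542, log2(FPKM + 1)) of the tested members of 28 gene lists in WT EBs; red points are members called higher, open points members not called, and blue bars the median of each list. The streak genes have a median of 0.96, the receptors lie between 0.02 and 0.21 and the housekeeping genes between -0.06 and 0.07; some genes stand in more than 1 list.

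No gene passed as lower under activin in the fit without a replicate block. Of the 10 genes with the smallest p among those with at least 5 FPKM under SB431542, Larp7, which stabilises the 7SK small nuclear RNA, had 52.1 and 54.7 FPKM under activin and 80.8 and 74.2 FPKM under SB431542 (-0.53 ± 0.16, adjusted p = 1.00). Cited2, a cofactor that binds CBP and p300, had 8.42 and 10.0 FPKM under activin and 12.3 and 13.9 FPKM under SB431542 (-0.47 ± 0.10, adjusted p = 0.423). The predicted gene Gm12666 had 27.9 and 28.6 FPKM under activin and 46.8 and 42.2 FPKM under SB431542 (-0.64 ± 0.20, adjusted p = 1.00). For these 3 genes both activin libraries lay below both SB431542 libraries, by less than 1 on the log2 scale. Spry4, Dusp4, Pnrc1, Lmo4, Neu1, Gtpbp3 and Gm20483 made up the rest of the 10, with changes between -0.46 and -0.17.

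Among the 10 uncalled genes that came next on the higher side were the 3 Duxbl genes, homeobox genes that are near-identical copies of each other. Duxbl1, Duxbl2 and Duxbl3 had changes of 0.58, 0.58 and 0.58 and nearly the same levels, so reads may have been split among them and each value is uncertain. Sertad4 changed by 0.83 ± 0.11 (adjusted p = 0.0582) and the glutamate receptor gene Grm6 by 0.41 ± 0.05 (adjusted p = 0.0582). The filter on level left some genes just outside. Wnt11, for example, had 1.43 and 0.955 FPKM under activin and 0.323 and 0.171 FPKM under SB431542 and was not tested, while Spaca6, with 1.20 and 1.12 FPKM under activin and 0.363 and 0.315 FPKM under SB431542, was just inside.

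Libraries differed in p53 target genes in a way that did not follow treatment. Of 12 such genes, 11 were highest in activin library II, against 34.4% of all tested genes. Cdkn1a, which encodes the cell cycle inhibitor p21, had 24.2 and 41.4 FPKM in activin I and II and 27.2 and 26.6 FPKM under SB431542, and Phlda3 had 24.3 and 42.9 FPKM in activin I and II and 31.0 and 29.0 FPKM under SB431542. None of the 12 was called and their median change was 0.02. The Zscan4 genes of 2-cell-like cells followed the numeral instead: Zscan4c had 5.46 and 1.22 FPKM in activin I and II and 5.71 and 1.38 FPKM in SB431542 I and II. Of 14 tested stress response genes none was called, with changes from -0.42 for Txnip to 0.24 for Gadd45b. The part of these library differences in the called genes was not tested; called genes were larger between the libraries numbered I in 16 cases and between those numbered II in 12.

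The same contrast could be read in Trim33-null EBs, which have their own activin and SB431542 libraries. There 14 genes were higher (0.13% of those tested, limma, adjusted p below 0.05) and 0 were lower. All 28 genes called in WT EBs were higher under activin in Trim33-null EBs as well, without overlap of the libraries (6.05% over all tested genes), and 13 of them were called there. Their median change was 0.98 in WT EBs and 0.76 in Trim33-null EBs, and 27 of the 28 were larger in WT, where they had been selected. Tested directly, 0 of 10752 genes differed in response between WT and Trim33-null EBs (limma interaction, adjusted p below 0.05). At an unadjusted p below 0.05, 33 genes did (0.307%), and 8 of those were among the 28. The 28 were selected on the WT change, which is part of this difference. Their share therefore cannot be set against that of all tested genes.

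Epha2 and Bcar3 had close changes in both genotypes, at 1.81 and 0.94 in WT against 1.71 and 0.86 in Trim33-null EBs. Lefty1 changed by 4.15 in WT EBs and by 3.59 in Trim33-null EBs, where its levels were higher under both treatments, at 389 and 426 FPKM under activin and 36.2 and 29.8 FPKM under SB431542. Gsc stood farthest apart, with a change of 1.39 ± 0.15 in WT EBs and 0.22 ± 0.15 in Trim33-null EBs, where it had 0.494 and 0.474 FPKM under activin and 0.253 and 0.295 FPKM under SB431542. The difference of 1.17 ± 0.22 for Gsc had an unadjusted p of 0.00129 and an adjusted p of 1.00 (limma interaction). Pcdh8 and Dhrs3 changed by 0.88 and 0.98 in WT EBs and by 0.41 and 0.49 in Trim33-null EBs, with unadjusted p of 0.00172 and 0.00997 for the difference and no adjusted call (limma interaction). Gsc, Pcdh8 and Dhrs3 passed the level filter through the WT activin libraries alone and were selected on their WT change. Selection thus favoured a larger change in WT, and these p-values do not allow for it.

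**Figure D4:**
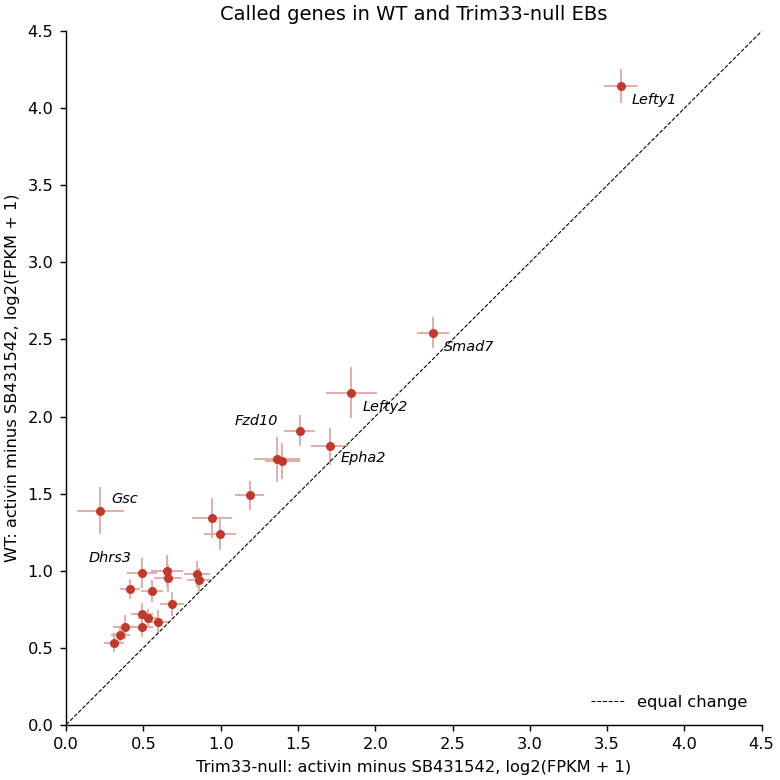
Change of 26 of the 28 genes called in WT EBs (activin minus SB431542, log2(FPKM + 1)) in WT EBs on the vertical axis and in Trim33-null EBs on the horizontal axis; bars are standard errors of the limma fit and the dashed line marks equal change. All points lie to the right of 0 and above the line, and Gsc lies farthest above it, at 1.39 in WT and 0.22 in Trim33-null EBs.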

How the data were processed

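RNA-seq levels in WT EBs were taken from the FPKM table that the authors deposited. Per the submitters' processing notes, the build was mm9 and the tools included STAR 2.4.0, Cufflinks 2.2.1, Bowtie2 2.2.2 and CASAVA 1.8. Annotation, strandedness and read filters were not given in the sources used here. Of 29145 entries, 113 lower duplicates of a symbol were left out. Groups and numerals came from sample titles and column names.

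Genes reaching 1 FPKM in 2 or more of the 4 WT libraries were tested on log2(FPKM + 1) with limma 3.58.1 (R 4.3.3), using an intensity trend and Benjamini-Hochberg adjustment over 10752 genes, threshold 0.05. This scale understates changes of low genes. The 8 EB libraries were fitted as 4 groups without a replicate block, leaving 4 residual degrees of freedom. Steps between values below 0.06 FPKM, matched within 0.02 on the log2 scale, gave relative depths, but held only 6.73% to 7.79% of low values, so no count test was run. A permutation test of 2 libraries against 2 cannot go below p = 0.333. The script was tested on simulated data. Other pseudocounts, filters, scalings, sets of libraries and blocks were tried. Lists received no test of their own.

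Genes named are 26 of the called genes, the 10 next on each side by p (those lower under activin with at least 5 FPKM under SB431542) and list members. The remaining called genes and some list members are not reported here. The comparison and lists were chosen with earlier results of these data known.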

Additional observations from a re-analysis of the deposited data

Results flagged for a closer look

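The listed genes Klf5, Dnmt3l, Ccnd2 and Ccna2 had both activin libraries above both SB431542 libraries in WT EBs and both below in Trim33-null EBs. They were picked for this pattern among the named and listed genes. In WT EBs alone, 14.7% of all tested genes had both activin libraries above. The share of all tested genes with the opposite pattern was not counted, so these genes are not shown to stand out from it. The WT response minus the Trim33-null response on the log2 scale was 0.31 for the naive pluripotency gene Klf5, 0.21 for Dnmt3l, which encodes a cofactor of DNA methyltransferases, 0.22 for the cyclin gene Ccnd2 and 0.14 for the cyclin gene Ccna2. Unadjusted p-values of the difference were 0.0519 for Klf5, 0.0455 for Dnmt3l, 0.145 for Ccnd2 and 0.179 for Ccna2, and the adjusted p was 1.00 for each (limma interaction). Klf5 had 3.41 and 3.43 FPKM under activin and 3.37 and 3.23 FPKM under SB431542 in WT EBs, and 4.67 and 4.53 FPKM under activin and 5.16 and 6.37 FPKM under SB431542 in Trim33-null EBs.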

How the results depend on the processing

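Lefty1, Smad7 and Fzd10 were past the threshold under all 14 alternatives, and the change turned sign for 0 of 48 named genes for which it was recomputed. The 28 calls became 27 and 29 with pseudocounts of 0.1 and 0.5 FPKM, 29 with median-of-ratios scaling, 27 without the intensity trend, 22 with a floor of 5 FPKM and 38 with the 4 WT libraries alone, where Fam89a, Gsc and Msc were lost. They became 15 with no filter on level, where 25551 genes were tested, and 48 with all 10 RNA-seq libraries. Of the 28, 13 were among the 15 called with no filter. The floor of 5 FPKM left some of the 28 untested, and 16 of them were among its 22 calls. Leaving out 1 library gave 4 to 5 calls, all among the 28, and the lone library left in a group was assumed to vary like the others. None was lower under these alternatives. Same-numbered libraries deviated together (across genes, r = 0.447 for WT and 0.906 for Trim33-null libraries), but there are 2 numbers and the labels do not say what they mark. With the numeral as a replicate block, 122 genes were higher and 8 lower in the 8 EB libraries, and 82 and 4 in the 4 WT libraries alone; all 28 stayed called in both. Genes gained under the block in 8 libraries included Pmepa1 (adjusted p = 0.000285), Fgf8 (0.000353), Fgf15 (0.000353), Tdgf1 (0.001), Eomes (0.00148), Nanog (0.00292), Wnt3 (0.00999), Mixl1 (0.0155) and Axin2 (0.0483), and, as lower, Gm12666 (0.00752), Cited2 (0.0112), Larp7 (0.029) and Spry4 (0.0366). The response differed between genotypes for 0 genes under each alternative that could test it. Low FPKM and 2 libraries per group limit what could be called.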

Other observations

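Of the 20 tested genes that changed by at least 1, 8 were not called, and all of them but Pxdc1 are named in the report. Pxdc1, singled out after its values were seen, had 4.26 and 6.56 FPKM under activin and 1.22 and 1.68 FPKM under SB431542 (1.37 ± 0.19 SE on the log2 scale, limma adjusted p = 0.0706), and its change in Trim33-null EBs was 1.56. Rasd2, a small GTPase of the Ras family and likewise chosen after its values were seen, had 3.28 and 5.33 FPKM under activin and 1.53 and 1.74 FPKM under SB431542 (0.98 ± 0.21, adjusted p = 0.384), and changed by 1.06 in Trim33-null EBs. For both genes the activin libraries lay above the SB431542 libraries.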
